A study of Mus musculus with 6 samples.

Results

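The proteasome module comprised every probe set of the array whose single annotated gene carried a proteasome symbol, that is Psm followed by a letter from a to g, a number and at most 1 further letter. This gave 100 of 45037 probe sets and 47 of the 18193 genes with a probe set of their own: 8 genes of the alpha ring of the core particle, 11 of the beta ring, 6 ATPases and 11 other subunits of the regulatory particle, 4 activators or inhibitors and 7 assembly chaperones. The cells were primary fibroblasts grown from the dermis, whose main task is to make collagen-rich matrix, of B6 mice aged 0 to 2 days, of both sexes mixed, at passage 4. In 3 cultures 5-aza-2'-deoxycytidine, a nucleoside that enters DNA in place of cytidine and holds DNA methyltransferases there, was present at 5 µM for 96 hours with a fresh preparation every 24 hours, and drug-free medium followed for 24 hours. The other 3 cultures received no drug. Cells of each biological replicate came from an explant of their own, and whether a treated and a control culture with the same number share one is not stated. Each culture had 1 expression array and may hold other skin cells, because an explant is not a purified population. Vim, the intermediate filament of mesenchymal cells, read 9598 to 12290 signal units over the 6 arrays. It was the only 1 of 8 fibroblast markers that did not fall, and the 7 others are given with the marker lists further on. Correlations between arrays were 0.972 to 0.974 within groups and 0.863 to 0.883 across them.

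The proteasome degrades proteins marked with ubiquitin. Its barrel-shaped core, the 20S particle, stacks rings of alpha and beta subunits, and the catalytic sites lie on the beta subunits PSMB5, PSMB6 and PSMB7. The 19S regulatory particle, built from ATPases (Psmc genes) and non-ATPases (Psmd genes), binds, unfolds and feeds in the substrate, and both particles together form the 26S proteasome. In cells exposed to interferon the catalytic subunits can be replaced by PSMB8, PSMB9 and PSMB10, and dedicated chaperones assist assembly. Transcription of subunit genes is known to be raised together by the factor NRF1 (Nfe2l1) when proteasome capacity falls short.

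Promoters are shown because the drug acts on methylation at CpG dinucleotides, which are in capitals in the following windows. The arrays did not measure methylation. The windows are the 250 bases before the annotated start in RefSeq, build GRCm38.p6, written 5′ to 3′ along the gene. Psmd8 and Psmb3 had the highest increases, Psmb5 and Psmb6 are constitutive catalytic subunits that rose, and Psme1 and Psmg4 were the members that fell.
Psmd8 (chr7:29180674-29180923, - strand): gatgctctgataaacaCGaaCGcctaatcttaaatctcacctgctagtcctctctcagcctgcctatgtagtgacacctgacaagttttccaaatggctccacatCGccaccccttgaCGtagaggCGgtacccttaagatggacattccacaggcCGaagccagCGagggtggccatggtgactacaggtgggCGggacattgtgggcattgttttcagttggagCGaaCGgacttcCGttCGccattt
Psmb3 (chr11:97703184-97703433, + strand): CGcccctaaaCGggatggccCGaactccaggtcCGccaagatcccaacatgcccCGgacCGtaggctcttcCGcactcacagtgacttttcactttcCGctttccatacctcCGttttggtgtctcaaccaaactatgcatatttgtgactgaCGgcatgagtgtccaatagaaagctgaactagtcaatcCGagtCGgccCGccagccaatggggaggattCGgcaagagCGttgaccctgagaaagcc
Psmb5 (chr14:54617996-54618245, - strand): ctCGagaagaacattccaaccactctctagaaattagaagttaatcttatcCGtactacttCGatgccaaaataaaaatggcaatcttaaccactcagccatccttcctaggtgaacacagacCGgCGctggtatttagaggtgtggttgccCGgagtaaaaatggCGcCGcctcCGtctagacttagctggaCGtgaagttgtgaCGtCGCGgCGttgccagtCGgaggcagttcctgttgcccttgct
Psmb6 (chr11:70525107-70525356, + strand): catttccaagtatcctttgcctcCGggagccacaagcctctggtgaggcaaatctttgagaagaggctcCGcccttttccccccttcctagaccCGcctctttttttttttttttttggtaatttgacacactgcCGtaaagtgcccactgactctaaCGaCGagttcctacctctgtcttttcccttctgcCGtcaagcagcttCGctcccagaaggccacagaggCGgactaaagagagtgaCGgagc
Psme1 (chr14:55578244-55578493, + strand): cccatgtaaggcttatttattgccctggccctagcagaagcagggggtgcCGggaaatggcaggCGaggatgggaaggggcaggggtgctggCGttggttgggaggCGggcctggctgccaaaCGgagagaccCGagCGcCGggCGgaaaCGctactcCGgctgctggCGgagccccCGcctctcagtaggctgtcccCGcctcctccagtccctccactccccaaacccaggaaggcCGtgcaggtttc
Psmg4 (chr13:34162714-34162963, + strand): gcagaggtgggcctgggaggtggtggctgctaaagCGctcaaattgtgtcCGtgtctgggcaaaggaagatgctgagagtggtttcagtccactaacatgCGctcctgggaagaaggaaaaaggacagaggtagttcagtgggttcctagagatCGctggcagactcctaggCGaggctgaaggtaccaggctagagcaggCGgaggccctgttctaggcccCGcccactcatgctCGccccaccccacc
These windows held 12, 15, 15, 10, 15 and 8 CpG dinucleotides, in the order printed. The part of promoter methylation in the changes was not tested. In windows of 300 bases, from 250 before to 50 after the start, 39 of the 47 genes matched the promoter table, with 41 promoters. Their median was 19 CpG dinucleotides, against 7 over all 32851 promoters of the table, and their median G and C content was 57.3% against 52.7%. The motif TGACNNNGC, the core of the antioxidant response element that NRF1 and NRF2 bind, was searched on both strands. It occurred in 6 of the 41 promoters (14.6%), those of Psmb5, Psmb6, Psmc6, Psmd12, Psmd9 and Psme4, and in 12.4% of all promoters. In Psmb5 it began at base -47 from the start and in Psmb6 at base -9. The motif CCAAT, on either strand, occurred in 14 of the 41 (34.1%) against 37.4% of all promoters, and 0 promoters held both motifs. Psmb3 carried CCAAT at bases -85 and -43, both within the window shown. Among promoters of members that rose, 12 of 28 held CCAAT (42.9%, near the 37.4% of all promoters). Among those of tested members that fell or were not called, 1 of 12 did. For TGACNNNGC the counts were 5 of 28 and 1 of 12. The differences between these small sets were not tested. These counts describe letters in a window and are no evidence of binding.

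Proteasome genes were mostly higher in treated cultures, and most of the increases lay in the subunits that build the 26S particle. Signals were scaled so that every array had the same 2% trimmed mean, and each log2 change is treated minus control on the scale log2(signal + 9.66) and is given ± its SE. By limma, with Benjamini-Hochberg adjustment over all 23388 tested probe sets and a threshold of 0.05, 31 of 45 tested proteasome genes rose, 2 fell and 12 were not called. Over all 12194 tested genes, 19.5% were called higher and 21.6% lower. Of the 31 tested subunits of the core rings and the regulatory particle without the inducible ones, 27 rose and 0 fell, with a median log2 change of 0.49 (1.41-fold), where the median over all tested genes was -0.0032. Of the other 14 tested members 4 rose and 2 fell, with a median of -0.063. Every one of the 31 had a log2 change above 0, from 0.089 to 1.00, and after quantile normalization all except Psmb4 (-0.037) did. With the deposited signals unscaled, 7 proteasome genes were called higher and 1 lower. The 75th and 90th percentiles of all tested genes were 0.32 and 0.71 on the same scale. The changes of the 31 subunits had an SD of 0.21 across genes, and the median SE of a single change was 0.086. The lowest treated mean signal was 745 among these 31 subunits and 50.8 among the other tested members. The shares over all tested genes include dim genes too, and the part of brightness in the counts of calls was not tested. The groups did not overlap in 28 of the 31, where 25.1% of all tested genes had all treated arrays above all controls. At the level of probe sets, 44 of 75 tested rose and 2 fell, against 18.4% and 20.3% of all tested probe sets. The histogram of all genes, with the proteasome genes by role beneath it, shows this shift.

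**Figure D1:**
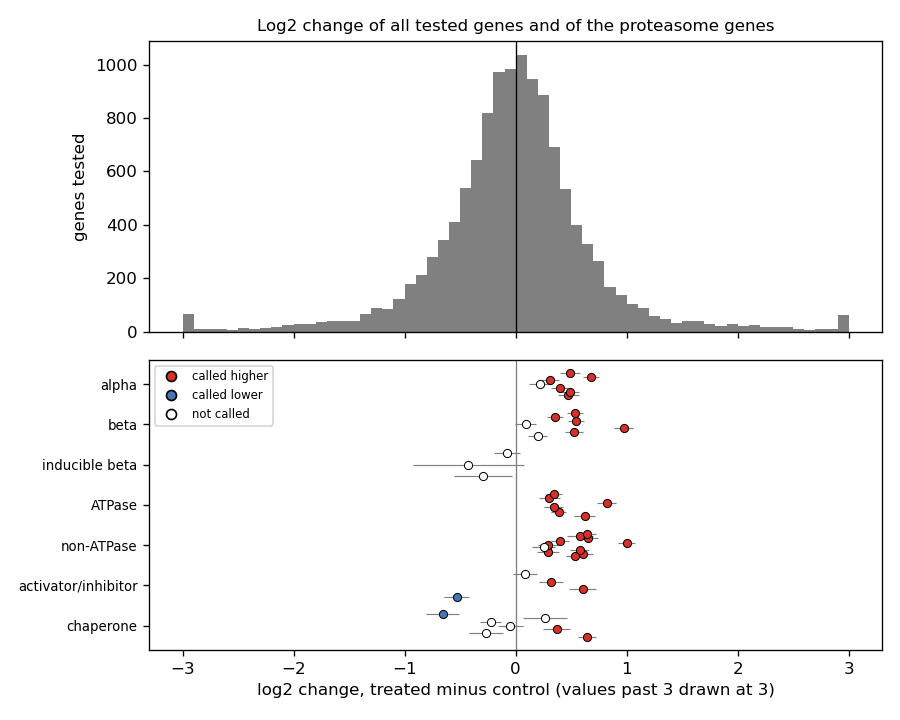
Upper panel: number of tested genes by log2 change, treated minus control, with values past 3 drawn at 3. Lower panel: the 45 tested proteasome genes by role, each point a gene with a bar of ± 1 SE; filled points passed limma at an adjusted p of 0.05. The points of the alpha, beta, ATPase and non-ATPase rows lie between 0.089 and 1.00, and both blue points, Psme1 and Psmg4, are in the lowest rows.

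The alpha ring, which forms the gated entrance of the core, rose in 6 of its 7 tested genes. Psma6, represented by a probe set whose suffix denotes probes that can match several transcripts, passed a log2 change of 0.5. Its signal was 2387, 2527 and 2441 in controls 1 to 3 and 3979.9, 3757 and 4046 in treated cultures 1 to 3, so that its log2 level differed by 0.68 ± 0.070 (adjusted p = 6.71e-05). All 3 treated values lay far above the controls, and the treated cultures differed little among themselves. Its probe set without that suffix changed by 0.50, and the mean over its tested probe sets, a dimmer one included, by 0.39 (adjusted p = 0.00254), below the 0.54 of Psma7 on that measure. On the brightest probe sets Psma7 (0.49 ± 0.089), Psma2 (0.49 ± 0.081), Psma1 (0.47 ± 0.094), Psma3 (0.40 ± 0.075) and Psma5 (0.31 ± 0.079) rose too, with adjusted p-values from 0.00107 to 0.012. Without control 2 the call of Psma5 was lost (0.25, adjusted p = 0.0502). Psma4 was the member of the ring that was not called, at 2446, 2337 and 2905 in controls and 3109, 3033 and 2767 in treated cultures. Control 3 lay above treated culture 3 for this gene, and without control 3 it passed (0.31, adjusted p = 0.0223). Psma8, a subunit known from male germ cells that replaces Psma7 there, was too dim to be tested. It read 19.8, 28.3 and 10.1 in controls and 43.0, 54.8 and 49.5 in treated cultures, without overlap, and lay below the median of its array, which was 51.4 to 60.6, on every one. With no filter on dim probe sets its log2 change of 1.06 was not called (adjusted p = 0.0583).

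Of the constitutive beta subunits 5 of 7 rose. Psmb3, a structural beta subunit, rose most, from 1709.6, 1573 and 1457 in controls to 3322, 2904 and 3099 in treated cultures, a log2 change of 0.97 ± 0.087 (SE; adjusted p = 2.68e-05) and a fold of 1.96. Its lowest treated signal was far above its highest control. The catalytic subunits all rose. Psmb5, which carries the chymotrypsin-like activity, read 1892, 1938 and 2047 in controls and 2951, 2801 and 2819 in treated cultures (0.54 ± 0.071, adjusted p = 0.000289). Psmb7, with the trypsin-like activity, read 3653, 3679 and 3479 and 5578, 5234 and 4878 (0.53 ± 0.076, adjusted p = 0.000464). Psmb6, with the caspase-like activity, had the smallest change of these genes, 0.36 ± 0.073 (SE; adjusted p = 0.00378), from a mean signal of 1574 ± 59.8 (SD, n = 3) to 2019 ± 71.4. The intervals of the 3 changes overlapped, at 0.38 to 0.70 for Psmb5, 0.36 to 0.71 for Psmb7 and 0.19 to 0.52 for Psmb6 (95%). Psmb2, a structural subunit, read 1380.3, 1379.9 and 1344 in controls and 2122, 1843 and 1968 in treated cultures (0.53 ± 0.078, adjusted p = 0.000612). Psmb1 changed by 0.20 ± 0.082 (adjusted p = 0.0865) and its groups did not overlap, since its lowest treated signal, 2692, exceeded its highest control, 2621. Psmb4 had the smallest change of the 31, 0.089 ± 0.091 (adjusted p = 0.483), at 3419, 3051 and 3009 in controls and 3733, 3139 and 3227 in treated cultures. Its other probe set, which also carries the suffix for shared probes, changed by 0.51 (adjusted p = 0.0124), and the mean over both probe sets passed the test (0.30, adjusted p = 0.0381).

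**Figure D2:**
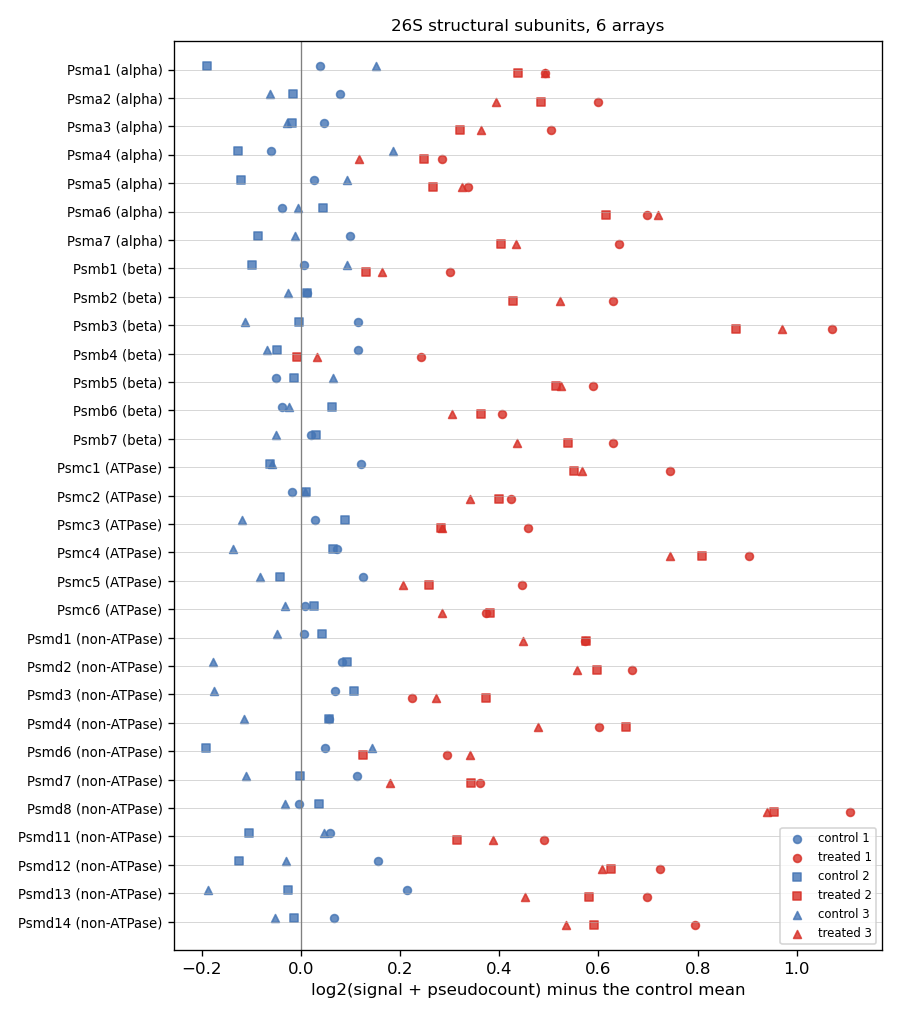
Log2(signal + 9.66) of the 31 tested structural subunits on each array, minus the mean of the 3 controls of that gene; blue marks are controls, red marks are treated cultures, and the shape gives the culture number. Red marks lie to the right of all blue marks for 28 genes, and treated culture 1 (red circles) is the rightmost for most of them.

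All 6 ATPases of the regulatory particle, which form the unfolding ring, rose. Psmc4 read 1016, 1011 and 878 in controls and 1815, 1698 and 1625 in treated cultures, a log2 change of 0.82 ± 0.088 (SE; adjusted p = 8.33e-05). Its other probe set gave 0.84. Psmc1 read 1033, 909 and 911 and 1596, 1395 and 1411 (0.62 ± 0.090, adjusted p = 0.000531). For both genes the lowest treated signal was well above the highest control. The other ATPases rose by less: Psmc2 by 0.39 ± 0.067, Psmc6 by 0.35 ± 0.070, Psmc3 by 0.34 ± 0.087 and Psmc5 by 0.30 ± 0.096. The value of Psmc2 comes from a probe set with the suffix for shared probes, and its other tested probe set rose by 0.47. Psmc5 was closest to the threshold (adjusted p = 0.0317), and its call was lost without control 2 or 3 or treated culture 1 or 2, with log2 changes of 0.23 to 0.33 and adjusted p-values of 0.0576 to 0.119.

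Among the 11 non-ATPase subunits 10 rose, and this group held the largest change of the module. Psmd8, a lid subunit, read 2477, 2545 and 2427 in controls and 5358, 4816 and 4774 in treated cultures, a log2 change of 1.00 ± 0.075 (SE; adjusted p = 8.69e-06), which is a 2.00-fold increase. All treated signals lay far above all controls. The interval of its change, 0.83 to 1.17, overlapped that of Psmb3, 0.78 to 1.17. Psmd14, the deubiquitinase that removes ubiquitin chains from substrates as they enter, read 2540.3, 2403 and 2338 in controls and 4216, 3656 and 3519.7 in treated cultures (0.64 ± 0.086, adjusted p = 0.000339). Psmd12, a lid subunit, read 1097, 901 and 964 and 1631, 1523 and 1503 (0.65 ± 0.092, adjusted p = 0.000434). These lid subunits showed no overlap between the groups. Psmd2, a large scaffold subunit of the base, read 1744, 1756 and 1454 in controls and 2620.5, 2493 and 2423 in treated cultures (0.61 ± 0.091, adjusted p = 0.000633). The other large scaffold subunit, Psmd1, read 1098, 1126 and 1058 and 1631, 1634 and 1495 (0.53 ± 0.077, adjusted p = 0.000504). Psmd4, a receptor for ubiquitin, read 1319.9, 1320.2 and 1172 and 1930.1, 2005 and 1769.8 (0.58 ± 0.085, adjusted p = 0.000572). In each of these genes the 3 treated cultures lay above the 3 controls. Psmd13, a lid subunit, read 616, 520.3 and 464 in controls and 865, 797 and 728 in treated cultures (0.58 ± 0.12, adjusted p = 0.00380). The mean over its tested probe sets, of which a dimmer one (control mean 212) changed by -0.47, was not called (0.17, adjusted p = 0.359). Psmd11 (0.40), Psmd7 (0.30) and Psmd3 (0.29), further lid subunits, rose with adjusted p-values of 0.00367, 0.0273 and 0.0458. The value of Psmd11 comes from a probe set with the suffix for shared probes, and its next brightest probe set rose by 0.45. The call of Psmd7 was lost without control 2 or 3 or treated culture 1 or 2 (0.24 to 0.29, adjusted p-values of 0.066 to 0.0913). That of Psmd3 was lost on leaving out any array other than control 2 (0.20 to 0.32, adjusted p-values of 0.0628 to 0.146). Psmd6 was not called, at 2877, 2436 and 3071 in controls and 3413, 3033 and 3525 in treated cultures (0.25 ± 0.10, adjusted p = 0.0770), and passed without control 3 (0.32, adjusted p = 0.0436).

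The inducible catalytic subunits, which replace the constitutive ones in the immunoproteasome, were not called, and the log2 changes of Psmb8, Psmb9 and Psmb10 were all below 0. Psmb8 read 115, 123 and 138 in controls and 105, 62.7 and 149 in treated cultures (-0.30 ± 0.26, adjusted p = 0.411), with treated values on both sides of the controls. Without treated culture 2 its change was 0.003. Psmb9 read 51.2, 73.5 and 53.4 in controls and 10.6, 69.1 and 72.7 in treated cultures (-0.43 ± 0.50, adjusted p = 0.547). The low value of treated culture 1, close to the pseudocount, set its direction, and without that culture the change was 0.24. Psmb10 read 257, 258 and 213 in controls and 222, 232 and 231 in treated cultures (-0.079 ± 0.12, adjusted p = 0.641). The 95% intervals were -0.88 to 0.29 for Psmb8, -1.55 to 0.70 for Psmb9 and -0.34 to 0.19 for Psmb10. Those of Psmb8 and Psmb10 lay below the changes of their counterparts Psmb5, 0.54, and Psmb7, 0.53. That of Psmb9 included the change of Psmb6, 0.36. The changes of the counterparts have SEs of their own, which these intervals leave out. To compare each inducible subunit with the subunit it replaces, the log2 ratio of both signals was taken on each array. The ratio of Psmb8 to Psmb5 changed by -0.84, that of Psmb10 to Psmb7 by -0.61 and that of Psmb9 to Psmb6 by -0.78. The SDs of these log2 ratios in treated cultures were 0.56, 0.12 and 1.19. By a two-sided exact permutation test, p was 0.1 for the first and second of these, the smallest value that 3 against 3 allows, and 0.4 for the last, and adjusted over the 3 pairs they were 0.15, 0.15 and 0.4. Treated and control ratios did not overlap for Psmb8 and Psmb10 and overlapped for Psmb9. After quantile normalization the changes of the ratios were -0.72, -0.41 and -0.74, in the same order. With the larger pseudocount the Psmb9 to Psmb6 ratio changed by -0.57 and did not overlap either (exact permutation p = 0.1), so that its overlap depends on the pseudocount. The thymus-specific subunit Psmb11 was too dim to be tested, with 33.7, 46.0 and 8.65 in controls and 7.12, 9.02 and 9.96 in treated cultures.

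Because immune cells carry much immunoproteasome, leukocyte markers were read beside these genes. Of 14 markers 13 had a probe set, 7 were tested, 2 rose and 0 fell, and their summed signal was 903 to 1048 on control and 1377 to 1771 on treated arrays. Ptprc, the pan-leukocyte marker, read 21.3 to 32.2 on control and 35.0 to 45.8 on treated arrays and was too dim to be tested. The leukocyte markers that rose were Cd53, whose mean signal went from 119 to 411, and Cd68. The change was above 0 in 6 of the 7 tested and below 0 in Laptm5 (-0.34, adjusted p = 0.0879). Over all tested genes 19.5% were called higher. Keratinocyte markers summed to 339 to 641 and 527 to 835, with 1 of 4 tested higher, and endothelial markers to 297 to 345 and 276 to 378, with 1 of 4 higher and 1 lower. The 8 fibroblast markers were all tested and bright, but 7 fell. These were Lum (-3.84), Pdgfra (-3.21), Dcn (-2.45), Col3a1 (-1.79), Col1a1 (-1.70), Col1a2 (-0.78) and Thy1 (-0.39), and Vim was not called (0.13). The sum of all 8 went from 50517 to 58271 in controls down to 23404 to 28299 in treated cultures. The part of these markers in the proteasome results was not tested, and in bulk cultures fewer cells of a type and less RNA per cell cannot be told apart.

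Of the 4 factors that cap or inhibit the core, 2 rose, 1 fell and 1 was not called. Over all tested genes 19.5% were called higher and 21.6% lower, and 4 genes are too few to set against these shares. Psme1, a subunit of the interferon-inducible activator PA28, fell. It read 992, 974 and 887 in controls and 692, 556 and 733 in treated cultures, a log2 change of -0.53 ± 0.11 (SE; adjusted p = 0.00475), and every treated culture was below every control. Its partner subunit PSME2 is measured by a probe set that names Psme2 and Psme2b together and is therefore no member of the module. That probe set read 1020.0, 959.5 and 905 in controls and 925, 789 and 832 in treated cultures, with a change of -0.18 ± 0.091 (SE; adjusted p = 0.152) and overlapping groups. Psme3, the nuclear activator PA28 gamma, rose, from 274, 291 and 219.9 in controls to 391, 409 and 402 in treated cultures (0.61 ± 0.12, adjusted p = 0.00332). Its treated signals were close together and all above the controls, and its dimmer probe set changed by 0.30 (adjusted p = 0.0726). Psme1 and Psme3, which encode related activators, thus moved in opposite directions. Psme4, the activator PA200, read 958, 945 and 784 in controls and 1121, 1236 and 1003 in treated cultures (0.32 ± 0.11, adjusted p = 0.0435). Its call was lost without control 2 or 3 or treated culture 1 or 2 (0.23 to 0.36, adjusted p-values of 0.0566 to 0.151), and with the mean over its probe sets (0.26, adjusted p = 0.0608). Psmf1, the inhibitor PI31, read 409.8, 465 and 367 in controls and 418, 446 and 447 in treated cultures (0.084 ± 0.11, adjusted p = 0.586), with an interval of -0.16 to 0.33.

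**Figure D3:**
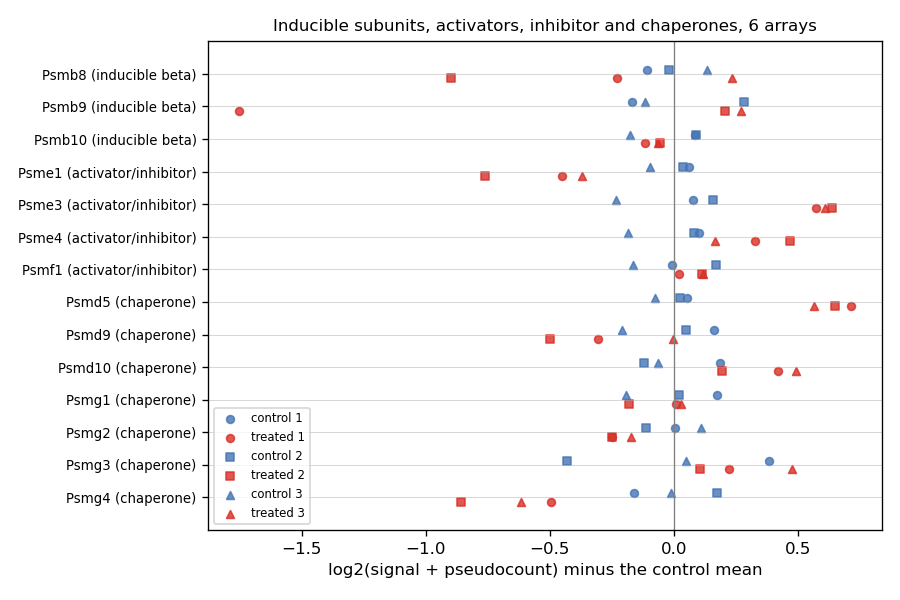
Log2(signal + 9.66) of the 14 other tested members on each array, minus the mean of the 3 controls of that gene; colours and shapes as for the structural subunits. Treated marks of Psme3, Psme4, Psmd5 and Psmd10 lie to the right of all controls and those of Psme1, Psmg2 and Psmg4 to the left, and treated culture 1 stands apart for Psmb9.

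Assembly chaperones, which bind part-built rings and leave the finished particle, moved in both directions. Of the 7 tested, 2 rose, 1 fell and 4 were not called, with a median log2 change of -0.048. These small counts are near the shares over all tested genes, of which 19.5% were called higher and 21.6% lower. The riser with the larger change was Psmd5, a chaperone of the ATPase ring, at 772, 756 and 705 in controls and 1227, 1170.2 and 1106 in treated cultures (0.64 ± 0.082, adjusted p = 0.000240). Psmd10, known as gankyrin and a chaperone of the same ring, read 442, 356 and 371 and 522, 445 and 549.8 (0.37 ± 0.12, adjusted p = 0.0353). Its lowest treated signal was only just above its highest control, and the call was lost without control 2 or 3 or treated culture 1 or 3 (0.31 to 0.34, adjusted p-values of 0.0886 to 0.115). Psmd9, the remaining chaperone of that ring in the list, read 356, 328 and 273 in controls and 255, 221 and 316 in treated cultures (-0.27 ± 0.15, adjusted p = 0.199), with overlap. The Psmg genes encode the chaperones of the alpha ring. Psmg4 fell, from 186, 236 and 207 in controls to 145, 111 and 133 in treated cultures, a log2 change of -0.66 ± 0.15 (SE; adjusted p = 0.00684), with all treated cultures below all controls. Psmg3, whose product pairs with that of Psmg4, read 287, 159 and 225 in controls and 255, 235 and 307 in treated cultures (0.27 ± 0.20, adjusted p = 0.326), and its controls were widely spread. Psmg1 read 777, 696 and 601 in controls and 691, 606 and 702 in treated cultures (-0.048 ± 0.11, adjusted p = 0.772). Psmg2, its partner, read 565, 519.8 and 607 and 471, 471 and 497 (-0.23 ± 0.093, adjusted p = 0.0830), where the treated cultures lay below the controls but the test was not passed. The 95% intervals, which are not adjusted, of Psmg1 (-0.30 to 0.20) and Psmg2 (-0.43 to -0.018) did not reach the 0.49 that was the median of the structural subunits, and that of Psmg3 did (-0.18 to 0.71).

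For 18 genes several probe sets were tested, and in 15 of these all of them changed in the same direction. In 10 the calls were the same, and 0 genes had calls in opposite directions. Probe sets gave similar changes for Psmc4 (0.82 and 0.84), Psma7 (0.49 and 0.59) and Psmb3 (0.97 and 0.86), and unlike ones for Psmb4 (0.089 and 0.51). The widest spread was that of Psmd13, with 0.58 and 0.39 at brighter probe sets and -0.47 (adjusted p = 0.279) at a dimmer one. The 5 tested probe sets of Psmd11 changed by 0.18 to 0.87. A dimmer probe set of Psma6 changed by -0.003 where its bright ones changed by 0.68 and 0.50. The 25 member probe sets that did not pass the filter on dim signal include those of Psma8 and Psmb11, and all others belong to genes with another probe set that was tested.

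**Figure D4:**
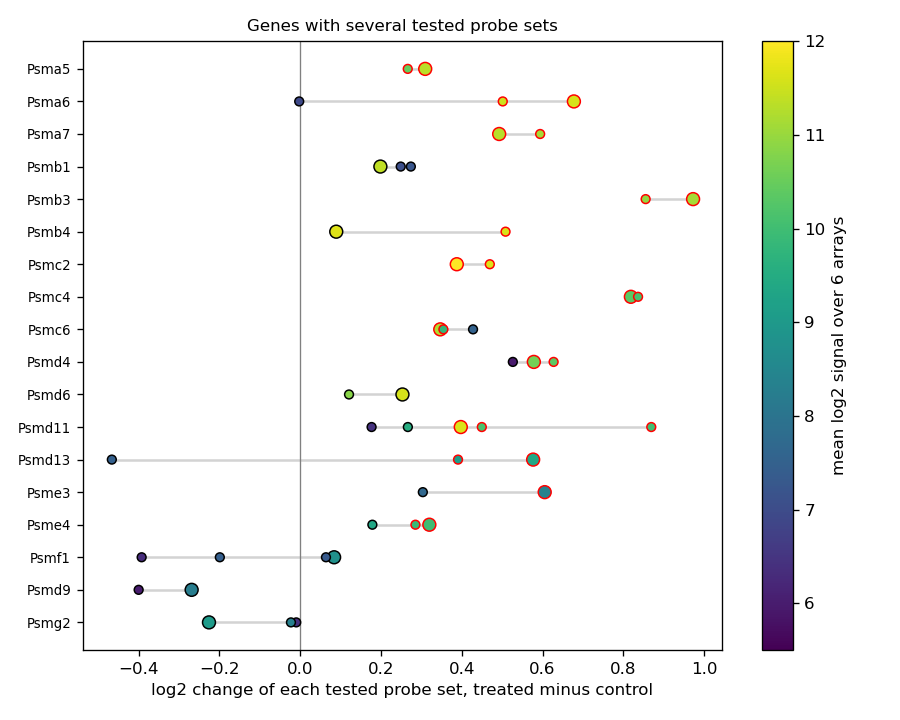
Log2 change, treated minus control, of each tested probe set of the 18 genes with more than 1; the colour gives its mean log2 signal over the 6 arrays, the larger point is the probe set that represents the gene, and a red outline marks an adjusted p under 0.05. Bright probe sets lie to the right of 0 for the structural subunits, and the points left of 0 outside Psmf1, Psmd9 and Psmg2 are dimmer ones of Psmd13 and Psma6.

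Treated culture 1 stood highest of the treated cultures in 23 of the 31 genes that rose, while among all genes called higher it did so in 42.6%. The median log2 deviation of the 31 structural subunits from their control mean was 0.57 in treated culture 1, 0.43 in treated culture 2 and 0.43 in treated culture 3, and 0.048, -0.013 and -0.033 in controls 1 to 3. The array of treated culture 1 had the lowest deposited signal and was multiplied by 1.29, and the other factors ranged from 0.863 to 1.08. With the deposited signals left unscaled, the medians of treated cultures 1 to 3 were 0.18, 0.51 and 0.52, and the 7 genes called higher were Psmd8, Psmb3, Psmc4, Psma6, Psmd12, Psmd14 and Psmd2 while Psmg4 was the one called lower. Without scaling the median log2 change of the structural subunits was 0.42, against 0.49 with it, and all members that had risen kept a change above 0, but 24 of them lost their calls. Psmb7, at 0.46 (adjusted p = 0.0551), and Psmb5, at 0.47 (adjusted p = 0.0858), were among these, and Psme1 lost its own at -0.60 (adjusted p = 0.0522). Without treated culture 1, with scaling, 26 proteasome genes were called higher and 2 lower. After quantile normalization 30 rose and 2 fell, and the median of the structural subunits was 0.36. Of the 31 risers, 25 kept their calls on leaving out any 1 array. As a check of RNA quality, the signal of Actb at its 3' end over that at its 5' end averaged 1.26 ± 0.010 (SD) over the controls and 1.16 ± 0.019 over the treated cultures (two-sided exact permutation test over 3 against 3 arrays, p = 0.1). The same ratio of Gapdh went the other way, from 0.739 ± 0.016 to 0.764 ± 0.024 (p = 0.2, same exact test). The part of these ratios in the result was not tested.

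Other genes of the proteasome pathway were read from a list of 37, of which 27 had a probe set of their own and 25 were tested. Of these 12 rose and 1 fell, with a median log2 change of 0.28, against 19.5% and 21.6% of all genes. The list was chosen with earlier results of these data known, so that this comparison is a description and no independent support. Pomp, the maturation factor of the core particle, read 2077, 2158 and 1973 in controls and 3515, 3286 and 2814 in treated cultures (0.62 ± 0.094, adjusted p = 0.000639). Its treated signals were all far above the controls. Sem1, the smallest lid subunit, changed by 0.16 ± 0.093 (adjusted p = 0.220), and its other probe set was called higher, at 0.25. Txnl1, a thioredoxin bound to the regulatory particle, rose by 0.39 ± 0.077. Another Txnl1 probe set was called higher, at 0.49, and a dimmer Txnl1 probe set changed by -0.24 (adjusted p = 0.0948). Of the deubiquitinases that dock on the regulatory particle, Usp14 read 1063, 1126 and 1047 in controls and 2379, 1839.9 and 2087 in treated cultures (0.95 ± 0.10, adjusted p = 7.24e-05). Uchl5 read 457, 408 and 458 and 719, 662 and 626 (0.59 ± 0.095, adjusted p = 0.000996). In both genes the groups were far apart, and the ligase Ube3c, which acts on stalled substrates, changed by 0.34 ± 0.16 (adjusted p = 0.128).

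Nfe2l1, which encodes NRF1, was not called, at 785, 853 and 685 in controls and 787, 837 and 892 in treated cultures, with a change of 0.12 ± 0.10 (SE; adjusted p = 0.401) and an interval of -0.11 to 0.34. NRF1 is known to be activated after translation, which arrays do not measure. Genes that process NRF1 changed in both directions. Vcp, the ATPase that extracts it from the endoplasmic reticulum, rose by 0.37 ± 0.071, as did its cofactors Ufd1 (0.49 ± 0.090) and Nploc4 (0.68 ± 0.13). Ngly1, the glycanase that strips sugars from NRF1, fell from 679, 650.4 and 692 in controls to 441, 410.2 and 409 in treated cultures (-0.67 ± 0.086, adjusted p = 0.000240), with the treated cultures close together and far below the controls. The ligase gene Syvn1 changed by 0.0088 ± 0.11 (adjusted p = 0.960). Among shuttle and adaptor proteins that carry substrates to the proteasome, Zfand2a, an arsenite-inducible adaptor, rose from 323, 299 and 269.7 in controls to 855, 947 and 776 in treated cultures (1.50 ± 0.11, adjusted p = 7.24e-06). Its other tested probe sets also rose, but by 0.89 and 0.80. Ubqln1 (0.39 ± 0.079) and Ubqln4 (0.37 ± 0.12) rose, and Rad23b (0.24 ± 0.095), Ubqln2 (-0.098 ± 0.10) and Zfand5 (-0.0081 ± 0.097) were not called. The values of Ubqln1, Rad23b, Syvn1 and Zfand5 come from probe sets with the shared-probe suffix. Another probe set of Zfand5 was called lower, at -0.49 (adjusted p = 0.00154). Ecpas, a proteasome-binding adaptor, was likewise not called on its brightest probe set (0.21 ± 0.18), while another was called lower, at -0.95 (adjusted p = 0.000441). Uba6, a ubiquitin-activating enzyme, rose by 0.28 ± 0.099. Of the genes that act with the immunoproteasome, the interferon regulatory factor Irf1 rose by 0.30 ± 0.10 (adjusted p = 0.0454). The peptide transporter genes Tap1 (-0.0079 ± 0.16) and Tap2 (-0.15 ± 0.12) and the loading factor Tapbp (0.26 ± 0.11) were not called. The calls of Irf1 (0.22 to 0.37, adjusted p-values up to 0.153), Uba6 (0.22 to 0.38, up to 0.156) and Ubqln4 (0.32 to 0.42, up to 0.116) held in 1 each of the 6 fits that left out an array: for Irf1 the one without treated culture 2, and for Uba6 and Ubqln4 the one without control 3. Unscaled, 3 of the 12 risers were called, namely Zfand2a, Usp14 and Pomp, and Ngly1 was called lower.

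**Figure D5:**
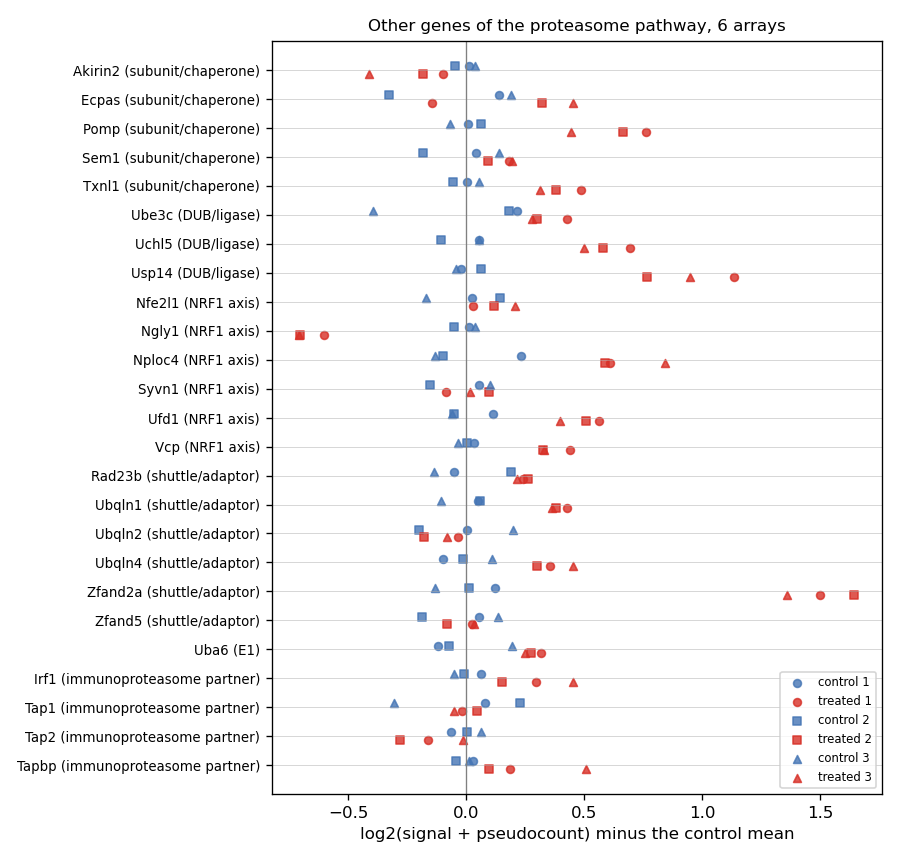
Log2(signal + 9.66) of the 25 tested pathway genes outside the module on each array, minus the mean of the 3 controls of that gene; blue marks are controls and red marks treated cultures. Zfand2a and Usp14 lie farthest to the right and Ngly1 farthest to the left, and the marks of Nfe2l1, Sem1 and Tap1 overlap.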

How the data were processed

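The authors deposited 1 signal intensity for each probe set on each array, and the submitters' processing notes name MAS5. The version, target level and calls of MAS5 are not known here, so dim signal could not be separated from background, and precision is limited by having 3 arrays a group. The 64 manufacturer's control probe sets were left out. Each array was scaled to a 2% trimmed mean of 193.2, and log2(signal + 9.66) was tested, where the pseudocount is 0.05 of that mean. A probe set was tested when at least 3 of the 6 arrays had it above their median. The test of treated against control used limma 3.58.1 under R 4.3.3 (lmFit, then eBayes with an intensity trend); group was the only term. A fold is 2 to the power of the log2 change and understates changes of dim genes. Each gene was represented by its brightest tested probe set, named through the platform annotation. The limma fit alone was run on simulated data, with far fewer changed probe sets than were called here. Scaling, filter and choice of probe set were not tested in this way.

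The members and lists were chosen with earlier results of these data known. All members were named, with values on every array for those called at a log2 change of at least 0.5 and for inducible subunits, activators and chaperones. Groups came from sample titles. The limma p-values set a difference between groups against the spread between the 3 cultures of a group, moderated over probe sets of similar brightness. Alternatives covered scaling, pseudocount, filter, trend, choice of probe set, replicate block and single arrays left out. The alternative that left out probe sets with shared-probe names was added after seeing the data. With it 31 proteasome genes were called higher and 2 lower.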

Additional observations from a re-analysis of the deposited data

How the results depend on the processing

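Scaling moved the counts most. Unscaled, the structural median was 0.42 against 0.49, 7 proteasome genes were higher and 1 lower, 7 structural subunits were higher, 10 member probe sets were higher and 1 lower, 3 pathway genes outside the module were higher, and over all probe sets 1977 were higher and 3042 lower. After quantile normalization, where the structural median was 0.36, 2 pathway genes were lower, with Akirin2 added, and Psmb4 changed by -0.037. With a gene taken as the mean of its probe sets Psmf1 changed by -0.11, Psmd13 (0.17) and Psme4 (0.26) lost their calls, and Psmb4 (0.30) gained one. On leaving out 1 array, Psmb8 ranged from -0.56 to 0.003, Psmb9 from -0.51 to 0.24 and Psmg1 from -0.14 to 0.039, with values above 0 without treated replicate 2 for Psmb8, without treated replicate 1 for Psmb9, and without control replicate 1 or treated replicate 2 (0.018) for Psmg1. Each of these reversed values missed the threshold. On leaving out 1 array the proteasome genes called higher ranged from 26 to 30, with 2 lower each time. Over the alternatives run, the counts of proteasome genes called higher were otherwise 24 (no intensity trend) to 32. With the replicate block 32 rose and 2 fell, with Psmd6 added; no shared explant is stated. Deviations of same-numbered arrays correlated at 0.19, 0.17 and 0.072, and those of the 6 differently numbered pairs at -0.15 to -0.022. Deviations were taken from the group mean, so the negative values largely follow from the positive ones and are no separate support. The same-numbered values hint at most that the numbers may mark a pairing. Of these, 1 was under 0.1, and the arrays were not treated as paired. In every fit run, Psma6, Psmb3, Psmc4, Psmd2, Psmd8, Psmd12 and Psmd14 were called higher and Psmg4 lower.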
